A study of Mus musculus with 31 samples.

Results

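The tumors described here were MC-38 tumors taken 24 h after a one 15 Gy dose of radiation therapy (RT). They were compared with MC-38 tumors that received 0 Gy, called Control. Each group held 4 mice, so 8 of the 31 libraries of the series entered this comparison, and the members were chosen by the treatment, time and tumor given in the sample labels. MC-38 is a mouse colon adenocarcinoma line. It was injected under the skin of the right hind leg of wild-type male C57BL/6J mice aged 6 to 7 weeks, and the dose was given locally once a tumor had formed. The whole series followed MC-38 and RM-9 tumors, the latter from a mouse prostate cancer line, without RT and at 3, 12 and 24 h after RT. Whole tumor RNA was measured by strand-specific, poly(A)-selected mRNA-Seq. The Control mice carry the 3 h label, so there was no unirradiated group matched to 24 h, and RT and the time of collection cannot be told apart. Each tumor held the injected line together with host cells, and all came from the same line.

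Ionizing radiation breaks DNA. Breaks activate p53 and checkpoint kinases, which hold cells before replication or mitosis, and DNA that reaches the cytosol can induce type I interferon. Interferon binds its receptor and turns on a large set of antiviral genes through STAT and IRF factors, which recognize an interferon response element, while NF-kB drives many cytokines and chemokines that draw leukocytes into the tumor.

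The 4 Control libraries held 21.9 to 24.1 M reads and the 4 RT 24 h libraries 24.0 to 25.5 M reads, as an upper limit worked out from the coverage columns. Expression was given in TPM (transcripts scaled to the same total in every library), which were summed per gene. Mitochondrially encoded genes took 40.6, 27.8, 25.7 and 31.04% of TPM in Control mice 1 to 4 and 30.5, 27.4, 22.5 and 24.4% in RT 24 h mice 1 to 4 (difference -5.05 percentage points, exact permutation test, two-sided p = 0.2 over 70 assignments, for which 0.0286 is the smallest p possible). The median gene was 0.22 higher on the log2 scale at RT 24 h. Results are therefore given for the deposited TPM and for TPM rescaled by median-ratio factors, called scaled values, in which the median gene lay at -0.022. The summed TPM of 18 skeletal muscle markers was 15030, 36.7, 200.3 and 2461 in the Control mice and 4716, 31.5, 1485 and 180 in the RT 24 h mice. These sums overlapped between the groups and ranged widely within each. Control mouse 1 had the highest muscle and mitochondrial levels and the lowest scaling factor (0.652, against 0.887 to 1.097 in the other 7 mice). Counts that move without it are given below, and the part of muscle RNA in the results was not tested. Of the defining markers of a colon epithelium, Epcam stayed at or below 0.12 TPM in all 8 libraries.

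Across 15698 genes tested with limma, deposited TPM gave 2073 genes (13.2%) above Control and 86 (0.548%) below it at a Benjamini-Hochberg adjusted p under 0.05. In scaled values, 1231 (7.84%) were higher and 1282 (8.17%) lower. Of the 2073 and 1231 higher calls, 1220 were shared by both scalings, and the 86 deposited lower calls were also made in scaled values. Higher calls made up 96.0% of all calls in deposited TPM and 49.0% in scaled values. Among the genes called under both scalings, 115 rose and 26 fell by at least 2-fold in scaled values. Every RT 24 h mouse lay above every Control mouse for 2323 genes (14.8%) and below for 141 (0.898%) in deposited TPM. In what follows "rose" and "fell" are used of genes called under both scalings, and calls made under 1 scaling are named as such. The list members and comparisons are read against these shares. All log2 differences are RT 24 h minus Control on the log2(TPM + 0.5) scale, which understates the change of genes with low TPM.

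**Figure D1:**
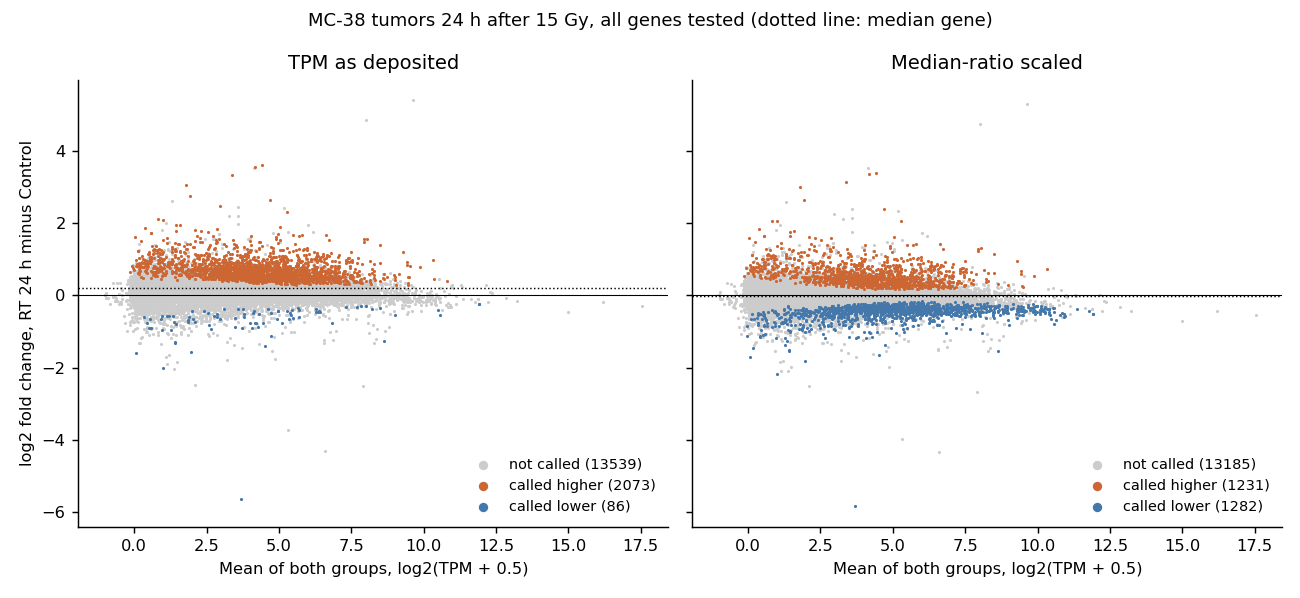
Log2 difference between RT 24 h and Control (vertical axis) against the mean of both groups on the log2(TPM + 0.5) scale (horizontal axis) for 15698 genes, in deposited TPM on the left and median-ratio scaled on the right. Each point is a gene, coloured where its limma adjusted p was under 0.05. The dotted line is the median gene, at 0.22 on the left and -0.022 on the right, and the lower calls go from 86 to 1282.

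Interferon-stimulated genes rose nearly as a block. Of 37 antiviral effectors and sensors measured, 35 were called higher in deposited TPM and 33 in scaled values, against the 13.2% and 7.84% of all genes. The median member was 0.69 higher in scaled values. Ifit3b, which binds viral RNA, stood at 40.4, 49.1, 67.2 and 59.1 TPM in the Control mice and 209, 116, 179 and 135 TPM at RT 24 h. The lowest irradiated mouse exceeded the highest Control mouse by a wide margin, and the scaled log2 difference was 1.28 ± 0.18 (SE; limma adjusted p = 0.000651). Herc6, a ligase that attaches ISG15 to proteins, had 17.4, 26.8, 34.9 and 26.4 TPM in Control and 70.7, 61.4, 54.3 and 59.7 TPM at RT 24 h (scaled log2 difference 0.98 ± 0.11, limma adjusted p = 0.00022). Oasl1, a 2'-5' oligoadenylate synthetase-like protein, went from a mean of 110 to 251 TPM, and Trim30a, a tripartite-motif protein of innate immunity, from 40.6 to 89.0 TPM. In all 4 of these genes the groups did not overlap. The list also held the sensors Ddx58 and Ifih1, the signal transducer Stat2 and the regulator Irf7, all called higher under both scalings. The 4 members not called in scaled values were Rtp4, Bst2, Ifi27l2a and Irf9. In scaled values, 28 were called without Control mouse 1.

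Another interferon-driven family, the guanylate-binding proteins and immunity-related GTPases that attack vacuoles and pathogens inside the cell, moved alongside. Of its 17 members, 16 were called higher in deposited TPM and 11 in scaled values, with a scaled median of 0.65. Gbp5 stood at 25.5, 31.5, 40.0 and 37.9 TPM in Control and 89.8, 82.6, 78.0 and 78.1 TPM at RT 24 h (scaled log2 difference 1.03 ± 0.10, limma adjusted p = 0.000145). The 4 irradiated mice spanned a narrow range far above the Control mice. Gbp3 rose from a mean of 127 to 237 TPM, Tgtp2 from 68.5 to 143 TPM and Irgm2 from 57.0 to 115 TPM. Irgm2 overlaps Igtp, a member of the same family, on the same strand, so reads of these 2 genes may be shared. Without Control mouse 1 and RT 24 h mouse 1, the 2 libraries with the most muscle RNA, 8 of the 17 were called in scaled values.

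The promoters of some of these genes are shown because the interferon response element is the sequence through which interferon acts on them. The 250 bases before the RefSeq gene start were taken (GRCm38.p6). For Gbp5 and Irgm2 that start lies 2956 and 15359 bases inside the gene as the deposited tables give it, so the window is not upstream of the deposited start. Capitals mark each match to GAAANNGAA, the core of that element, or to GGAANTTCC, a kappa B sequence bound by NF-kB, on either strand.
Ifit3b promoter, chr19:34607707-34607956, plus strand: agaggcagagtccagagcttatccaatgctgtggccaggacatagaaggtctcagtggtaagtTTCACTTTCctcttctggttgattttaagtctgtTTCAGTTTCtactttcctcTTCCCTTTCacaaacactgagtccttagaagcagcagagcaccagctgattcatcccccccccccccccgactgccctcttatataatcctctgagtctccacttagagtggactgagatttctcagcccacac
Gbp5 promoter, chr3:142496684-142496933, plus strand: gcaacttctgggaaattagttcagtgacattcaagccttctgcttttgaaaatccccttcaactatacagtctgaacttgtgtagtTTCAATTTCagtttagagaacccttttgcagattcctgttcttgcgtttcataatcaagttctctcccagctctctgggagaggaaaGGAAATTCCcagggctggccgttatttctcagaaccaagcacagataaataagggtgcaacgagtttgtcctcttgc
Irgm2 promoter, chr11:58214727-58214976, plus strand: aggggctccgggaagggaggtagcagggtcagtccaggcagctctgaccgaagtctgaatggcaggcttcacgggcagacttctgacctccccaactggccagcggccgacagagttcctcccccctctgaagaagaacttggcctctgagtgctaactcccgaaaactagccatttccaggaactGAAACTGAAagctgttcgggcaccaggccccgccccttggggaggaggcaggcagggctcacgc
Ifnb1 promoter, chr4:88522795-88523044, minus strand: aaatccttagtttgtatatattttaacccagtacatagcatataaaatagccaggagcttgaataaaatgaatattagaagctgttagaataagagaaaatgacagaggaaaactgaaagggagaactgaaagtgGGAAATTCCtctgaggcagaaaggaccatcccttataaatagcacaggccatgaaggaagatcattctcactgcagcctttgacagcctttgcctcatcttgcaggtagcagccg

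The 8 interferon and GTPase genes given with values above (Ifit3b, Herc6, Oasl1, Trim30a, Gbp5, Gbp3, Tgtp2 and Irgm2) each had a promoter window in the RefSeq table, and 6 of the 8 windows held GAAANNGAA. The same letters occurred in 7.16% of all 27025 windows of that length. Ifit3b held 3 copies, starting 187, 153 and 134 bases before the RefSeq gene start and all matching on the reverse strand. Gbp5 held 1 copy and, nearer to the start, a GGAANTTCC sequence, which occurred in 0.844% of all windows. Ifnb1, which encodes interferon beta, held the GGAANTTCC sequence 115 bases before its start. The windows of Herc6 and Oasl1 did not contain the GAAANNGAA letters. These matches describe the sequence only. The shares among called genes could not be compared, since the table covered less than 80% of them.

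Interferon beta itself was among the leading rises. Ifnb1 (chr4:88522025-88522774) stood at 0.663, 0.616, 1.01 and 0.443 TPM in Control and 7.39, 2.40, 4.33 and 3.39 TPM at RT 24 h. Its level was low in absolute terms, yet each irradiated mouse lay above all Control mice, and the scaled log2 difference was 1.80 ± 0.27 (limma adjusted p = 0.000842). The transcript of the interferon-inducible chemokine gene Cxcl11 went from 7.78, 15.5, 17.5 and 13.3 TPM to 73.2, 38.3, 56.3 and 37.3 TPM (scaled log2 difference 1.63 ± 0.21, limma adjusted p = 0.000403). Cxcl11 lies within the span of Art3 on the opposite strand.

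Among 19 chemokines that do not act on CXCR2, 8 rose and 1 fell under both scalings. Ccl4 and Ccl5, chemokines that draw T cells and monocytes, rose to means of 83.6 and 376 TPM from 25.6 and 120 TPM. In Ccl5 the irradiated mice were widely spread, at 541, 216, 464 and 283 TPM against 102 to 145 TPM in Control, and the scaled log2 difference was 1.30 ± 0.27 (limma adjusted p = 0.00493). Cxcl10, Ccl2, Ccl3 and Ccl7 were the other risers with Cx3cl1, the membrane-bound ligand of CX3CR1. Cx3cl1 had 6.09, 9.09, 12.2 and 9.82 TPM in Control and 24.4, 22.9, 18.5 and 24.3 TPM at RT 24 h. The chemokine that fell was Cxcl16. Its call was lost under both scalings without Control mouse 1, Control mouse 4, RT 24 h mouse 1, RT 24 h mouse 2 or both mice numbered 1, and in deposited TPM also without Control mouse 2 or RT 24 h mouse 4. Without both mice numbered 1, 6 of the 19 were called higher in scaled values.

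NF-kB regulators and inflammatory cytokines formed a further block, with 17 of 22 called higher in deposited TPM and 15 in scaled values (scaled median 0.63). Il6, encoding interleukin-6, had 0.932, 1.66, 1.53 and 1.25 TPM in Control and 8.82, 4.03, 7.26 and 4.75 TPM at RT 24 h, with no overlap (scaled log2 difference 1.62 ± 0.22, limma adjusted p = 0.000559). Osm, encoding oncostatin M, rose from a mean of 3.54 to 9.47 TPM, Il11 from 0.934 to 3.38 TPM and Lif, leukemia inhibitory factor, from 10.5 to 19.4 TPM. The inhibitors Nfkbia, Nfkbie and Tnfaip3, which NF-kB itself induces, rose along with the subunits Relb and Nfkb2 and with Tnf. Il1rl1, the receptor of interleukin-33, was called lower in scaled values only. Without Control mouse 4, 10 were called higher in scaled values.

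**Figure D2:**
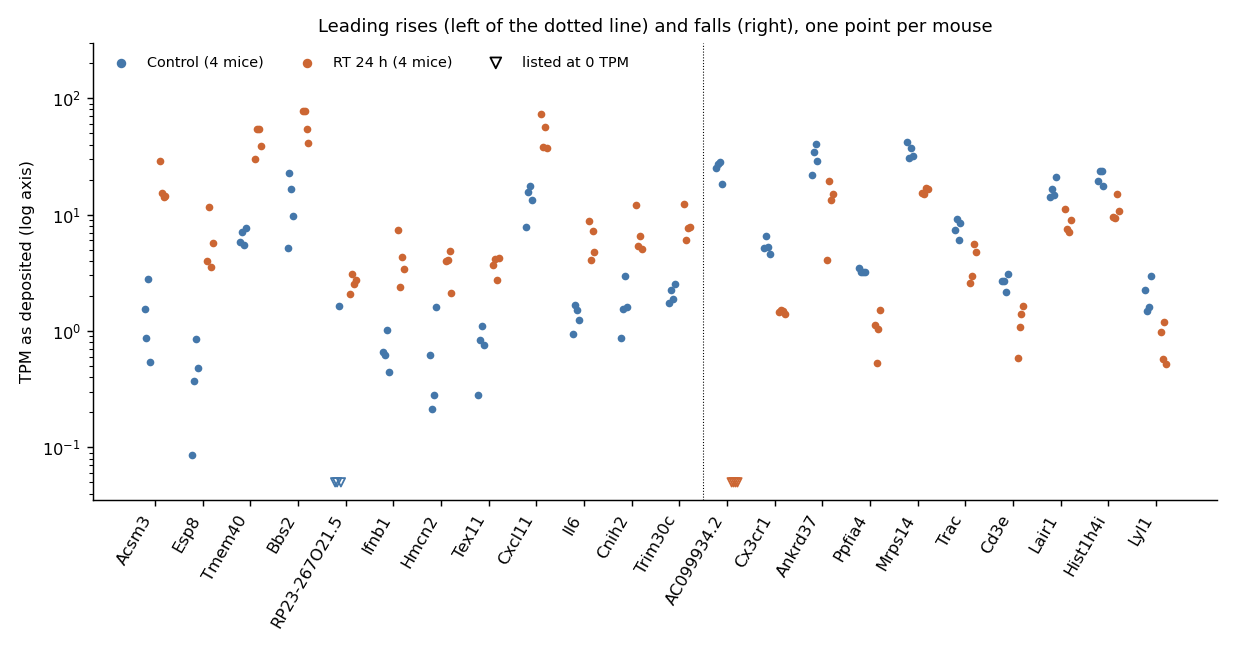
Deposited TPM on a log axis for the leading rises and falls, with 1 point for each mouse (4 Control, 4 RT 24 h) and open triangles for values listed at 0. The irradiated mice lie above all Control mice left of the dotted line and below all of them right of it, as the selection rule requires.

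Antigen presentation gave fewer calls. For MHC class I presentation, 8 of 19 members were called higher in deposited TPM and 3 in scaled values, and the scaled median was 0.064. H2-T22, a non-classical class I gene, rose from 95.1, 124, 143 and 134 TPM to 265, 227, 276 and 217 TPM (scaled log2 difference 0.73 ± 0.10, limma adjusted p = 0.00057). Tap1, a subunit of the peptide transporter, rose by a scaled log2 difference of 0.31, and H2-Q4 by 0.29. Class I genes are close copies of each other, so their reads may be split uncertainly. Without Control mouse 1, 1 of the 19 was called in scaled values. Of 10 MHC class II genes, 0 were called under either scaling (limma), and at an unadjusted p under 0.05 the count was 1, lower, in each. H2-Ab1, a class II beta chain, had 177, 159, 97.1 and 243 TPM in Control and 53.6, 108, 73.3 and 102 TPM at RT 24 h, with overlapping groups and a limma adjusted p of 0.0761 in scaled values. Of 13 checkpoint ligands and receptors, Lgals9, Cd274 and Cd276 rose. Cd274, which encodes PD-L1, had 11.9, 22.6, 21.03 and 19.6 TPM in Control and 31.5, 41.8, 38.0 and 44.2 TPM at RT 24 h.

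Genes that copy DNA were higher at 24 h. Of 40 replication genes, 25 were called higher in deposited TPM and 20 in scaled values, with a scaled median of 0.22. The changes were small but tight: Mcm4, a subunit of the replicative helicase, had 38.3, 59.3, 65.5 and 58.2 TPM in Control and 94.7, 94.5, 87.7 and 102 TPM at RT 24 h (scaled log2 difference 0.54 ± 0.06, limma adjusted p = 0.000274). Mcm2, Mcm3, Mcm5, Mcm6 and Mcm7, the other subunits of that ring, were called higher as well. Orc1, which marks replication origins, rose from a mean of 14.01 to 23.7 TPM, and Mcm10 from 26.4 to 42.9 TPM. Tk1, thymidine kinase of the salvage pathway, was the exception, with 72.0, 100, 103 and 106 TPM in Control and 62.1, 86.3, 87.3 and 76.3 TPM at RT 24 h. The Tk1 groups overlapped in deposited TPM, and it was called lower in scaled values only (log2 difference -0.55 ± 0.08, limma adjusted p = 0.000818). Without both mice numbered 1, 13 replication genes were called higher in scaled values.

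Replication-dependent histones, whose mRNAs normally accumulate during DNA synthesis, did not follow. Of 35 tested among 70 in the files, 6 were called lower in deposited TPM and 10 in scaled values, and the scaled median was -0.52. Hist1h4i had 19.5, 23.9, 23.5 and 17.6 TPM in Control and 9.54, 9.28, 15.0 and 10.8 TPM at RT 24 h (scaled log2 difference -1.17 ± 0.15, limma adjusted p = 0.000394). The highest irradiated mouse was below the lowest Control mouse. Without Control mouse 2, RT 24 h mouse 1, RT 24 h mouse 4 or both mice numbered 1, 1 histone was called lower in deposited TPM, and 3 were without Control mouse 1. Hist1h4k, Hist1h4m and Hist1h4n also fell, at means under 3 TPM. These histone H4 genes are near-identical copies that share reads, and they largely lack a poly(A) tail, which the library preparation selects.

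Genes of G2 and mitosis were higher in 14 of 36 cases in deposited TPM and 10 in scaled values (scaled median 0.33). Cdc25b, the phosphatase that starts entry into mitosis, had 25.9, 44.8, 53.2 and 39.8 TPM in Control and 48.8, 85.1, 65.7 and 82.0 TPM at RT 24 h, with overlap between the groups. Pttg1, the securin that holds sister chromatids together, rose from a mean of 56.2 to 87.6 TPM, and Bora, an activator of mitotic kinases, from 10.6 to 19.0 TPM. These calls rested on Control mouse 1: without it, 2 of the 36 were called in scaled values. At 3 h the scaled median of the same genes had been -0.51, with 8 members called lower.

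p53 targets and repair genes showed a mixed picture at 24 h. Of 28 p53 targets, 6 rose (Mdm2, Polk, Zmat3, Ephx1, Zfp365 and Cdkn1a). Mdm2, the ligase that degrades p53, had 12.2, 18.4, 18.4 and 13.6 TPM in Control and 23.1, 27.1, 25.3 and 28.9 TPM at RT 24 h (scaled log2 difference 0.48 ± 0.10, limma adjusted p = 0.00456). Its means at 3 h and 12 h were 34.0 and 30.6 TPM. The death genes Bbc3 and Bax were called lower in scaled values only, with means of 13.6 against 11.3 TPM for Bbc3 and 119 against 116 TPM for Bax. Without Control mouse 2, 3 were called higher in scaled values. Of 44 DNA repair genes, 7 rose, among them Brca2 of homologous recombination (mean 7.41 to 12.7 TPM). Nhej1, an end-joining factor, fell from a mean of 8.21 to 5.19 TPM, and H2afx, the histone variant phosphorylated at breaks, was called lower in scaled values only. Without Control mouse 1, 4 of the 44 repair genes were called higher.

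**Figure D3:**
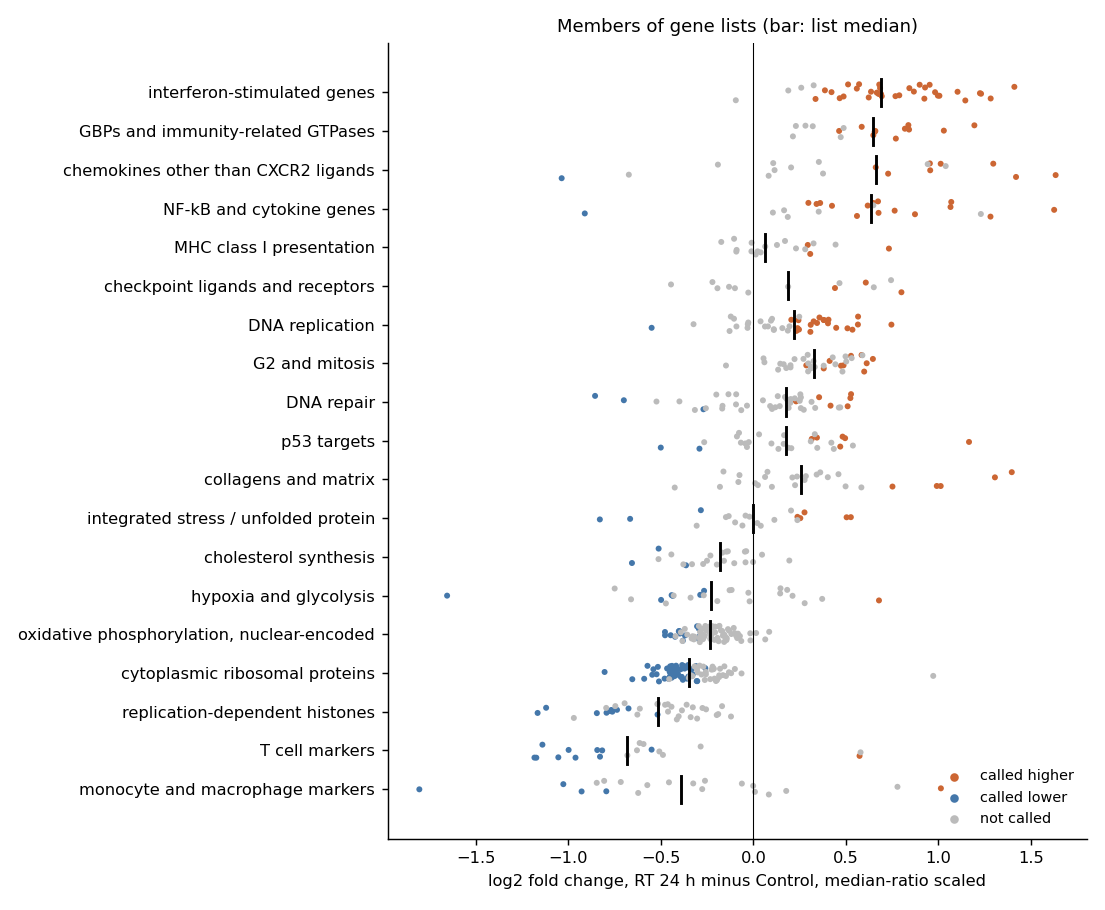
Scaled log2 difference between RT 24 h and Control (horizontal axis) for the members of 19 gene lists, 1 point a gene, coloured where the limma adjusted p was under 0.05, with a bar at the list median. Interferon-stimulated genes lie almost wholly to the right (median 0.69), and T cell markers (median -0.68) and replication-dependent histones (median -0.52) mostly to the left.

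T cell genes were mostly lower after RT. Of 19 markers, 5 were called lower and 2 higher in deposited TPM. In scaled values 10 were called lower and 1 higher, and the scaled median was -0.68. Cd3e, a chain of the T cell receptor complex, had 2.68, 2.66, 2.16 and 3.09 TPM in Control and 0.586, 1.09, 1.40 and 1.63 TPM at RT 24 h (scaled log2 difference -1.17 ± 0.27, limma adjusted p = 0.00875). Trac, the constant region of the receptor alpha chain, had 7.39, 9.16, 6.08 and 8.49 TPM in Control and 2.58, 2.95, 5.57 and 4.74 TPM at RT 24 h. The groups did not overlap in either gene, although the highest irradiated mouse came close to the lowest Control mouse for Trac. Cd2, an adhesion receptor of T cells, fell from a mean of 4.03 to 2.27 TPM. Tcf7, a transcription factor of T cells that other cells also express, rose from 9.69 to 17.4 TPM. Il7r of the same list was called higher in deposited TPM only. In whole tumors, fewer T cells and less RNA per T cell cannot be told apart. The summed TPM of all 20 listed markers, tested or not, overlapped, at 73.0 to 98.2 in Control and 51.6 to 80.4 at RT 24 h. Without Control mouse 1, 4 markers were called lower in scaled values, and 2 without both mice numbered 1. In deposited TPM the call of Cd3e was lost without Control mouse 4 (log2 difference -0.88) or RT 24 h mouse 2 (-0.94), that of Trac without RT 24 h mouse 2 (-0.83) and that of Cd2 without Control mouse 4 (-0.65). Gzmb, the granzyme of cytotoxic lymphocytes, rose in these tumors, from 31.7, 64.7, 65.9 and 64.1 TPM to 66.9, 112, 132 and 132 TPM. Most of its list was not called: of 15 NK and cytotoxic genes, 2 rose and 0 fell. The largest scaled log2 difference in that list, 1.30, was that of Ccl5, already counted among the chemokines. The summed deposited TPM of all 16 listed was 203 to 317 in Control and 439 to 710 at RT 24 h. The scaled median of that list was -0.25, and at an unadjusted p under 0.05 (limma) 2 were higher and 3 lower in scaled values.

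Macrophage genes split. The chemokine receptor Cx3cr1 of monocytes and tissue macrophages, whose ligand Cx3cl1 had risen, showed the strongest fall among the named protein-coding genes. It had 5.17, 6.56, 5.27 and 4.54 TPM in Control and 1.47, 1.52, 1.48 and 1.40 TPM at RT 24 h (scaled log2 difference -1.80 ± 0.30, limma adjusted p = 0.00149). The irradiated mice were close to each other and well below every Control mouse. The annotated span of Cx3cr1 overlaps Gorasp1, Csrnp1 and Xirp1 on the same strand. C1qb and C1qc, complement subunits made by macrophages, and Adgre1, which encodes F4/80, were called lower in scaled values only. C1qb had means of 340 and 197 TPM and C1qc of 250 and 157 TPM. Nos2, the inducible nitric oxide synthase, rose from 4.97, 9.88, 10.4 and 10.3 TPM to 13.3, 28.5, 24.0 and 22.1 TPM. Over the 20 monocyte and macrophage markers, 2 were called higher (Nos2 and Ly6c2) and 1 lower (Cx3cr1) in deposited TPM, and 1 higher and 4 lower in scaled values. The scaled counts were 0 higher and 1 lower without Control mouse 1. The scaled call of Nos2 was lost without any single mouse but RT 24 h mouse 1, and its deposited call without Control mouse 1 or RT 24 h mouse 2, 3 or 4. Lair1, an inhibitory collagen receptor of leukocytes, fell from a mean of 16.7 to 8.69 TPM.

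Other host cells gave few calls. The summed TPM of all 22 listed neutrophil markers, of which 15 were tested, was 81.5 to 118.3 in Control and 168 to 233 at RT 24 h, without overlap. These sums are in deposited TPM. Of the 15 tested, 2 were called higher in deposited TPM, against 13.2% of all genes. In scaled values 1 was called higher and 1 lower. Hdc, a histamine-forming enzyme of neutrophils and mast cells, rose from a mean of 5.23 to 11.7 TPM, and Trem3 was called lower in scaled values. Ly6g was listed at 0 in all 8 libraries and in 15 of the 31 of the series. A listed 0 does not by itself show low expression in these files, since the abundant transcripts mt-Atp6 and Rn7s1 were listed at 0 in all 31. Unlike mt-Atp6 and Rn7s1, Ly6g was listed above 0 in the rest of the series. The summed TPM of all 19 listed endothelial markers was 214 to 251 in Control and 327 to 433 at RT 24 h, in deposited TPM. Within that sum Vcam1 had means of 56.5 and 116 TPM, and it was called higher in deposited TPM only. Of the 18 tested, 7 were called higher in deposited TPM, and the scaled median was 0.12. Under both scalings 2 rose, among them Mmrn2 (mean 3.04 to 6.33 TPM). Without Control mouse 2 or 3, 0 endothelial markers were called in scaled values. Cd79a, a chain of the B cell receptor, rose from 3.28 to 7.57 TPM. Of 14 fibroblast markers, 0 were called under either scaling (limma), with 2 higher at an unadjusted p under 0.05 in deposited TPM and 1 lower in scaled values.

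**Figure D4:**
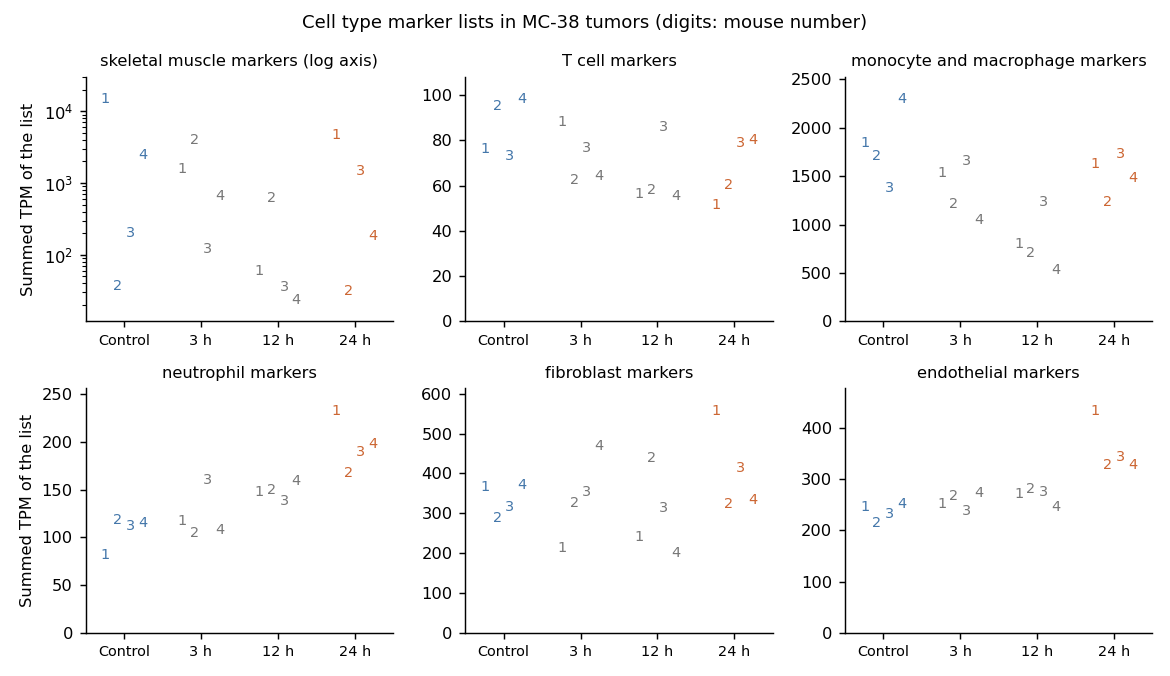
Summed TPM of 6 cell type marker lists in the 4 MC-38 groups, with each mouse shown by its number and a log axis for skeletal muscle. In deposited TPM, neutrophil and endothelial sums at 24 h lie above all Control mice. Within the endothelial sum, Vcam1 had means of 56.5 TPM in Control and 116 TPM at RT 24 h. Muscle sums of the Control and RT 24 h mice overlap, running from 31.5 to 15030. Muscle markers had their lowest scaled median at 12 h, at -3.11 against Control.

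The largest rise among the named genes was that of Acsm3 (chr7:119760923-119787513), a mitochondrial acyl-CoA synthetase. It had 1.54, 0.870, 2.79 and 0.539 TPM in Control and 29.0, 15.4, 14.2 and 14.5 TPM at RT 24 h (scaled log2 difference 3.15 ± 0.40, limma adjusted p = 0.000403). Its means were already 7.03 TPM at 3 h and 11.8 TPM at 12 h. Tmem40, a transmembrane protein, climbed in the same way, with group means of 6.49, 11.8, 24.9 and 44.5 TPM from Control through 3, 12 and 24 h. Tmem40 stood at 30.3, 54.4, 54.6 and 38.5 TPM in the RT 24 h mice and 5.48 to 7.66 TPM in Control (scaled log2 difference 2.40 ± 0.22, limma adjusted p = 9.36e-05). Bbs2, a subunit of the complex that carries proteins to the cilium, rose from 5.11, 22.6, 16.7 and 9.68 TPM to 78.2, 77.6, 54.2 and 41.1 TPM. Acsm3 overlaps Eri2 on the opposite strand.

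Further genes low in Control completed the leading rises. Tex11, known for its part in meiotic recombination, rose from a mean of 0.745 to 3.70 TPM, and Esp8, of a family of exocrine gland-secreted peptides, from 0.446 to 6.22 TPM. Cnih2, an auxiliary protein of glutamate receptors, rose from 1.74 to 7.29 TPM, and Trim30c, a relative of Trim30a, from 2.10 to 8.49 TPM. Cnih2 overlaps Yif1a on the opposite strand. Hmcn2, a large matrix protein, had 0.624, 0.214, 0.283 and 1.597 TPM in Control and 3.98, 4.07, 4.83 and 2.12 TPM at RT 24 h, a scaled log2 difference of 1.76, but its deposited coverage gave a log2 difference of 0.65. RP23-267O21.5, named after a clone, was listed at 0 in 3 of 4 Control mice and at 1.64 TPM in the other, against 2.07, 3.08, 2.51 and 2.72 TPM at RT 24 h. Its deposited call was lost without Control mouse 1, 2 or 4.

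The remaining leading falls belonged to varied functions. Ankrd37, a hypoxia-induced gene, had 21.7, 34.6, 40.4 and 29.1 TPM in Control and 4.07, 19.6, 13.3 and 15.2 TPM at RT 24 h (scaled log2 difference -1.66 ± 0.32, limma adjusted p = 0.00357). Ankrd37 overlaps Ufsp2 on the opposite strand. Ppfia4, a liprin scaffold protein, fell from a mean of 3.27 to 1.05 TPM, and Lyl1, a transcription factor of blood cells, from 2.07 to 0.818 TPM. Lyl1 overlaps the more abundant Nfix (mean 47.6 TPM) on the opposite strand. Mrps14, of the mitochondrial ribosome, had 41.7, 30.9, 37.6 and 31.7 TPM in Control and 15.3, 15.1, 16.9 and 16.4 TPM at RT 24 h, a log2 difference of -1.38 in scaled TPM and of -0.32 in coverage. AC099934.2 (chr12:69159437-69159506) lies inside the 7SL RNA gene Rn7s1 on the same strand. It had 25.2, 27.3, 28.3 and 18.4 TPM in Control and was listed at 0 in all 4 RT 24 h mice. Rn7s1 itself was listed at 0 in every library, so this 0 cannot be read as a lower level, and no fold is given.

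Several housekeeping groups were lower only after scaling. Of 80 cytoplasmic ribosomal protein genes, 2 were called lower in deposited TPM and 45 in scaled values, with medians of -0.084 and -0.35. Rpl13a, of the large ribosomal subunit, was 1 of the 2, with 1590, 1874, 1922 and 1704 TPM in Control and 983, 1017, 1535 and 1425 TPM at RT 24 h. Of 76 nuclear genes of oxidative phosphorylation, 13 were called lower in scaled values, 4 without Control mouse 1. Without both mice numbered 1, the ribosomal count was 25. Of 24 hypoxia and glycolysis genes, 6 were called lower in scaled values, including Ldha, Tpi1 and Pgk1 of glycolysis, whose deposited TPM overlapped between groups. Ldha had means of 1309 TPM in Control and 1111 TPM at RT 24 h.

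The 24 h tumors were set against the MC-38 tumors at 12 h to ask which levels belonged to the later time. In deposited TPM 218 genes (1.39%) were higher and 46 (0.293%) lower at 24 h than at 12 h. In scaled values 572 (3.64%) were higher and 304 (1.94%) lower. The comparison uses the same RT 24 h mice as that with Control. Skeletal muscle markers had a scaled median against Control of -3.11 at 12 h and -0.90 at 24 h. Between these times 0 of the 18 were called in scaled values, and the part of muscle RNA was not tested. Interferon-stimulated genes stood out, with 28 of 37 higher than at 12 h in scaled values and 6 in deposited TPM. Ifit3b means were 80.5 TPM at 3 h and 71.0 TPM at 12 h against 160 TPM at 24 h, a scaled difference of 1.22 from 12 h (limma adjusted p = 0.00193). Chemokines were higher in 8 of 19 cases in scaled values, led by Ccl4, which stood at 15.7 to 27.4 TPM at 12 h and 61.7 to 101 TPM at 24 h (scaled log2 difference 1.88, limma adjusted p = 0.000625). Ccl4 at 12 h lay within the Control range or just below it, at a mean of 23.7 TPM.

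Cholesterol synthesis ran the other way. Of its 22 genes, 12 were lower at 24 h than at 12 h in scaled values and 11 in deposited TPM. Insig1, the sterol-responsive brake on the pathway, stood at 35.5, 34.5, 41.3 and 47.8 TPM at 12 h and 18.3, 24.8, 16.7 and 20.6 TPM at 24 h (scaled log2 difference -0.89, limma adjusted p = 0.000663). Sqle, the squalene epoxidase, went from a 12 h mean of 78.5 to 39.9 TPM, close to the Control mean of 47.1 TPM. Against Control, Insig1, Sqle and Msmo1 were called lower in scaled values only. Macrophage markers also differed between the times: Ly6c2, Ccr2, Cd68, Fcgr1 and Msr1 were higher than at 12 h in scaled values, and the summed TPM of the 20 markers was 535 to 1229 at 12 h and 1231 to 1727 at 24 h.

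**Figure D5:**
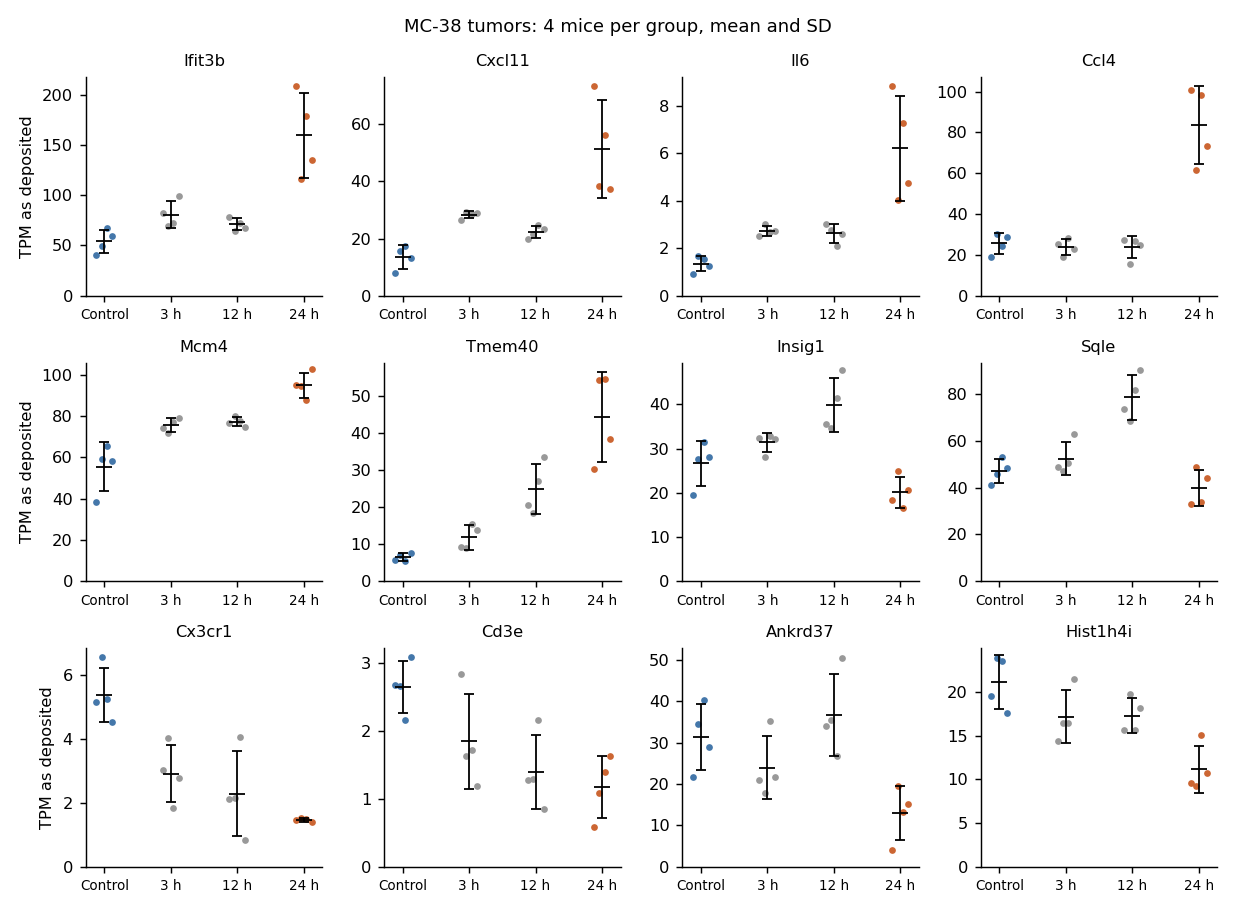
Deposited TPM of 12 named genes in MC-38 Control tumors and at 3, 12 and 24 h after RT, with 1 point a mouse, the mean as a long bar and the SD as error bars (n = 4). Ifit3b, Cxcl11, Il6 and Ccl4 are highest at 24 h, Insig1 and Sqle peak at 12 h, and Cx3cr1 is lowest at 24 h with means of 5.39, 2.92, 2.29 and 1.47 TPM.

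The 24 h change in MC-38 was then compared with that in RM-9 tumors (4 Control and 3 RT 24 h mice) through an interaction term over all 31 libraries. In deposited TPM the change was more positive in MC-38 for 278 of 15358 genes (1.81%) and more negative for 0 (0.0%), against 115 more negative ones at an unadjusted p under 0.05 and 89 called on coverage. In scaled values the counts were 218 (1.42%) and 43 (0.28%). Acsm3 had the highest interaction value of the named genes at 3.07 (limma adjusted p = 0.000364), and it was listed at 0 in all 7 RM-9 mice of that comparison. Ifnb1 (1.74), Cxcl11 (1.56) and Il6 (1.38) also passed the test. The highest values of Ifnb1 and Cxcl11 in those RM-9 mice were 0.0473 and 0.252 TPM. Acsm3, Ifnb1 and Cxcl11 thus lay below the pseudocount of 0.5 in RM-9, where a change could hardly show. Il6 lay near it, at 0.340 to 0.541 TPM in RM-9 Control and 0.494 to 0.596 TPM at RM-9 RT 24 h. Of the 37 interferon-stimulated genes only Ddx60 passed the test, so a difference between the tumors was not shown for Ifit3b (interaction 1.11, limma adjusted p = 0.222) and most others of the list. Of 40 replication genes, 11 had a more positive change in MC-38. Mcm4 had an interaction value of 0.71 (limma adjusted p = 0.00218). Of the falling genes, Hist1h4i passed in scaled values with an interaction of -1.07 (limma adjusted p = 0.0081) but not in deposited TPM (limma adjusted p = 0.0501), while Cx3cr1 (-0.77, limma adjusted p = 0.487) and Cd3e (-0.38, limma adjusted p = 0.692) did not.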

How the data were processed

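The libraries (TruSeq Stranded mRNA) were sequenced as 75-base single reads. For each of the 31 libraries the authors deposited a table of 46072 genes with TPM, FPKM and coverage. TPM have the same total in every library, so a rise in some genes lowers others. The submitters' processing notes name bcl2fastq 2.17 and GRCm39, while the deposited coordinates match GRCm38. The aligner, the quantifier and whether strand was used in counting are not given in the sources used here. Deposited FPKM were not tested, and deposited coverage served as an alternative signal. No read counts were used here, so counting error could not be given and depth is an upper limit.

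TPM were summed per gene identifier. Genes with a mean of at least 0.5 TPM over the 16 MC-38 libraries were tested as log2(TPM + 0.5) with limma 3.58.1 (R 4.3.3; lmFit and eBayes with a trend) over the 4 MC-38 groups, and p-values were adjusted by the Benjamini-Hochberg method. Scaled values of the MC-38 groups were TPM divided by median-ratio factors. These used genes with a nonzero TPM in all 16 MC-38 libraries, mitochondrially encoded genes left out. A model over 31 libraries gave the interaction. Single values were compared with an exact permutation test over the 8 mice. Adjusted p-values were limma's. Tables and plots used Python 3.11.15, numpy 2.4.6, pandas 2.3.3 and matplotlib 3.10.9. The scripts were tested on simulated data.

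Leading genes were the 12 rises and 12 falls with the largest scaled differences among genes called the same way under both scalings, with a mean of at least 1 TPM over the 8 libraries and no overlap between groups. Predicted genes, pseudogenes, receptor segments and mitochondrially encoded genes were set aside, 80 of the 931 passing rises and 9 of the 56 passing falls. AC099934.2 was named as read under that rule. From each of 38 gene lists, up to 4 members with the smallest scaled p were described with values, and where none passed, the member with the highest TPM. Other list members are named only as called or not. Of the 24 leading genes, 2 are not reported here. Members, lists and tests were chosen with earlier results of these data known. Adgre1, Nos2 and the defining markers were given values after these were seen.

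Alternatives covered the scaling, pseudocount, low-value filter, groups in the fit, trend, mouse number as a block, each mouse left out, coverage, and both mice numbered 1 left out. The last 2 were added after seeing the data. Groups come from the labels, which name separate mice.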

Additional observations from a re-analysis of the deposited data

Results flagged for a closer look

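Single mice stood apart from the other 3 of their group by Dixon's test in 8 of the 197 groups of 4 tested over 99 named genes. Chance does this in about 1 in 20 groups, or 9.85 of 197, so the 8 are no more than chance gives. At RT 24 h, Acsm3 was highest in mouse 1 at 29.0 TPM, Irgm2 highest in mouse 1 at 129 TPM and Ctss, a lysosomal protease, lowest in mouse 2 at 361 TPM. In Control, RP23-267O21.5 was highest in mouse 3 at 1.64 TPM. Control mouse 1 was apart for the other 4: Ppfia4 was highest there at 3.44 TPM, Eno3, a muscle enolase, highest at 387 TPM, Gzmb lowest at 31.7 TPM and Klf2, a transcription factor of endothelium and lymphocytes, lowest at 24.8 TPM. 

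The 24 h change differed between MC-38 and RM-9 tumors by the interaction term (scaled log2 values, MC-38 minus RM-9, limma adjusted p) in 218 genes toward MC-38 and 43 toward RM-9. The named genes that passed in both deposited and scaled values were Acsm3 (3.07), Esp8 (2.46), Bbs2 (2.14), Ifnb1 (1.74), Tmem40 (1.6), Cxcl11 (1.56), Tex11 (1.55), Cnih2 (1.5), Trim30c (1.46) and Il6 (1.38) of the leading rises, with adjusted p from 0.000364 for Acsm3 to 0.0457 for Trim30c. Of the replication and repair genes, Mcm4 (0.712), Mcm10 (0.642), Orc1 (0.604) and Brca2 (0.913) differed. So did Thbs2 (1.38) and Col18a1 (0.68) of the matrix, H2-T22 (0.816), Cd79a (1.12) and Pdia4 (0.469), a protein disulfide isomerase. Acsm3, Esp8 and Tex11 were listed at 0 in all RM-9 Control and RT 24 h mice. Ifnb1, Cxcl11 and Cd79a reached at most 0.0473, 0.252 and 0.123 TPM there. All of these lie below the pseudocount of 0.5, so a change in RM-9 could hardly show and their values mostly restate the MC-38 change. Il6, Trim30c and Cnih2 reached at most 0.596, 0.828 and 0.874 TPM in the same RM-9 mice, near that pseudocount. Hist1h4i (-1.07), Rpl13a (-0.889), Cdc25b (0.869) and Bora (0.751) passed in scaled values only, as did AC099934.2, for which no value is given because it was listed at 0 in some groups.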

How the results depend on the processing

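The median gene's log2 difference of 0.22 was -0.022 under median-ratio scaling, which centres the median gene by construction. With the fit limited to the 2 compared groups, 299 genes were called higher and 13 lower in deposited TPM and 458 and 320 in scaled values. Without Control mouse 1 and RT 24 h mouse 1, scaled calls were 787 higher and 762 lower. Deposited lower calls came to 1129 on coverage per depth and 452 on TPM without mitochondrial genes. Leaving out 1 mouse gave 1033 to 3428 higher and 39 to 166 lower calls in deposited TPM (1226 higher without Control mouse 1, 3428 without Control mouse 3, 1217 and 1033 without RT 24 h mouse 2 or 4; 39 to 57 lower without Control mouse 2 or 4 or RT 24 h mouse 1, 2 or 4, and 137 and 166 lower without RT 24 h mouse 3 or Control mouse 1). In scaled values it gave 882 to 1584 higher and 854 to 1572 lower calls (854 without Control mouse 1). The median difference ran from 0.11 to 0.29 and that of the mitochondrial share from -6.90 to -1.95 points. The count of 264 genes that differed from 12 h became 876 after scaling, 886 on coverage, 991 on scaled coverage and 133 to 355 with a mouse left out (133 to 159 without RT 24 h mouse 1, 3 or 4 or RT 12 h mouse 1, 2 or 4). The interaction count of 278 became 447 with a pseudocount of 1 and 99 to 1447 with a mouse left out (99 without Control mouse 1, 1447 without Control mouse 3, 590 without RT 24 h mouse 1, and 146 to 183 without RT 24 h mouse 2 or 4 or Control mouse 4). With mouse number as a replicate block the interaction count was 170, and 2329 and 89 genes were higher and lower in deposited TPM, but the numbers did not pair the samples (correlations of same-numbered Control and RT 24 h mice of 0.55, 0.51, -0.23 and -0.10) and not every mouse correlated best with its own number. For 98 named genes, 1937 values under alternatives included 132 that lost and 73 that gained the call, 32 of the losses with only the compared groups fitted, and 0 that turned direction. Deposited calls of Bora, Brca2, Cd2, Cd3e, Cdc25b, Gsr, Gzmb, H2-Q4, Hist1h4k, Hist1h4m, Hist1h4n, Lair1, Ltbp1, Lyl1, Nhej1, Polk, RP23-267O21.5, Rpl13a, Trac, Vil1, Zmat3 and mt-Co3 were lost without at least a single mouse. The causes were not tested. Depth limits genes near 0.5 TPM, for which no counting error could be given.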

Other observations

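Some extracellular matrix genes rose without a call in the fibroblast markers. Of 26 collagens and matrix genes, 9 were called higher in deposited TPM and 5 in scaled values (Col18a1, Thbs2, Fn1, Thbs1 and Fbn1). Thbs2, a matrix protein that restrains vessel growth, had 19.7, 34.0, 24.4 and 19.6 TPM in Control and 114, 76.2, 56.5 and 68.2 TPM at RT 24 h (scaled log2 difference 1.40 ± 0.24, limma adjusted p = 0.00206). Fn1, fibronectin, had 86.1, 167, 172 and 97.4 TPM in Control and 559, 434, 236 and 331 TPM at RT 24 h, without overlap. Col18a1, the source of endostatin, rose from a mean of 23.2 to 46.9 TPM, and Thbs1 from 20.4 to 49.98 TPM. Thbs1 stood at 21.1 TPM at 12 h, near its Control mean, whereas Fn1 was already at 435 TPM. Fibroblast markers summed to 288 to 371 TPM in Control and 323 to 557 TPM at RT 24 h.

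Of 20 genes of the integrated stress and unfolded protein response, Pdia4, Calr, Hspa5, Hsp90b1 and Creld2 rose, while Ddit4, Herpud1 and Trib3 were called lower in scaled values only. Calr, calreticulin, went from a mean of 684 to 1177 TPM, with 560 to 794 TPM in Control and 1090 to 1230 TPM at RT 24 h. Hspa5, the chaperone BiP, rose from 586 to 831 TPM. Ddit4, a stress-induced inhibitor of mTORC1, had means of 116 and 78.1 TPM. Without Control mouse 2, 3 of the 20 were called higher in scaled values. The immediate early transcription factor Egr2 rose from a mean of 0.916 to 3.03 TPM, and Klf2 fell from 26.5 to 15.9 TPM. Cd40, a costimulatory receptor of antigen-presenting cells, rose from 17.5 to 32.1 TPM and Zbtb46, a transcription factor of dendritic cells, from 3.82 to 6.69 TPM, while Itgax, encoding CD11c, was called lower in scaled values only (log2 difference -0.81, limma adjusted p = 0.0263). Without Control mouse 4, 0 of the 8 dendritic cell markers were called higher in scaled values, and the call of Itgax was lost without Control mouse 1 or 2 or RT 24 h mouse 1. Of 19 TGF-beta pathway genes, 2 rose, among them Ltbp1 (mean 25.3 to 44.5 TPM), and Tgfbr1 and Smad2 were called lower in scaled values only. Without Control mouse 2 or RT 24 h mouse 4, 0 of the 19 were called in scaled values. C2, of the complement cascade, rose from 6.45 to 12.9 TPM. Of the 16 complement genes tested, 2 were called higher in deposited TPM. In scaled values 1 was called higher and 2 lower, with a scaled median of -0.063. Of 17 heat shock chaperones, 3 were called higher in deposited TPM and 0 in scaled values (limma), where 2 were higher at an unadjusted p under 0.05.

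The other lists gave few calls. Gsr, glutathione reductase, rose among 17 Nrf2 antioxidant genes, and 2 of that list were called lower in scaled values. Of 17 BCL2 family members, 2 were called higher in deposited TPM and 2 lower in scaled values. Of 16 epithelial and colon markers, 4 were tested, and Vil1, encoding villin, rose from a mean of 0.327 to 0.948 TPM. Of 9 mitochondrially encoded protein genes, mt-Co3 fell, from 4158 to 3522 TPM. In scaled values the calls of limma were 0 of 18 skeletal muscle, 0 of 6 skin keratinocyte, 0 of 6 adipocyte and 0 of 6 red cell and platelet markers, and at an unadjusted p under 0.05 there were 2 adipocyte markers higher and 2 red cell and platelet markers lower.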
